A study of Mus musculus with 4 samples.

Results

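The genes described here encode the SR proteins (*Srsf*), the heterogeneous nuclear ribonucleoproteins (*Hnrnp*), the proteins of the small nuclear ribonucleoproteins, or snRNPs (*Snrp*), and the splicing factor 3A and 3B subunits (*Sf3a* and *Sf3b*). Members were taken by the start of their symbol, and the symbol families themselves were picked with earlier results of these data known. The tables list 48 such genes among 9936, and 47 of them are among the 9779 genes with a value. *Hnrnpc* is the remaining member, and it was left out because of a failed estimate. The 47 genes comprise 10 *Srsf*, 17 *Hnrnp*, 11 *Snrp* and 9 *Sf3a* or *Sf3b* genes.

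RNA-Seq was performed on LF2 cells, a female embryonic stem cell (ESC) line of the 129/J mouse strain. The cells were grown on feeders, passed without them before treatment, and then exposed for 24 hr to DMSO or 10 µM GSK-J4, each in PBS or with 50 µg/ml L-ascorbic acid (AA). GSK-J4 is a cell-permeable small molecule that inhibits JmjC histone H3K27 demethylases, and AA is a cofactor that favours the activity of such enzymes. The authors propose that GSK-J4 also inhibits H3K4 demethylation, from its effect at induced genes that they examined. They also cite an earlier report that it inhibits other JmjC demethylases, and public binding data of the H3K4 demethylase Kdm5c. The 4 conditions, PBS+DMSO, PBS+GSK-J4, AA+DMSO and AA+GSK-J4, have 1 library each of this 1 line, so no difference below has a replicate or a test. The comparison of GSK-J4 with DMSO was made once without AA and once with AA, and these comparisons share no library. In bulk RNA, fewer cells of a type and less RNA per cell cannot be told apart.

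Splicing removes introns in 2 chemical steps carried out by the spliceosome. The U1 snRNP binds the 5′ splice site and the U2 snRNP binds the branch point, and each contains a ring of Sm proteins, while SF3A and SF3B are parts of the U2 snRNP. SR proteins and hnRNPs bind the pre-mRNA itself and promote or repress the use of nearby exons. Rapidly dividing cells such as ESCs express most of these genes at high levels.

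Levels are given as FPKM, a count of sequenced fragments scaled by exon length and by the mapped fragments of the library, added up over all coding sequence groups of a gene. Series of 4 values follow the order PBS+DMSO, PBS+GSK-J4, AA+DMSO, AA+GSK-J4. Changes are log2 ratios of FPKM + 1, a scale on which changes of weakly expressed genes appear too small, and pairs of ratios are for GSK-J4 without and then with AA. A gene was tested in a comparison when it reached an FPKM of 1 in either library. Read counts are not part of the tables, and the depth behind each value is unknown. The 12 ESC markers examined all had an FPKM of at least 1 in every library, and their summed FPKM was 2476, 1471, 2259 and 1340 in this order. Of 12 fibroblast markers, 5 have a value, none of them at 0, and their sum was 27.7, 38.8, 24.7 and 35.2 FPKM in the same order. Of 8 differentiation markers, 2 have a value, and their sum was between 1.03 and 1.51 FPKM. Within this low sum the 2 genes moved in opposite directions with GSK-J4. *Mesp1* was at 0.0646, 0.856, 0.0665 and 0.678 FPKM, and *Pax6* at 1.44, 0.176, 0.998 and 0.472 FPKM.

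The sequences upstream of 5 genes are shown because they allow strongly reduced members to be set beside a member that was reduced less. *Hnrnpdl*, the most strongly reduced member, is not among them. *Srsf2*, *Srsf3*, *Srsf7* and *Snrpa1* were among the lowest under GSK-J4 in both comparisons, and *Srsf5* was among the least changed of its family. Sequences are from RefSeq, build GRCm38.p6, and only the longest stretch free of exons annotated in GENCODE M21 within the 250 bases before a transcription start is printed, 5′ to 3′. Capitals mark motifs found on either strand. The GC box, bound by Sp1, is written GGGCGG. The box bound by NF-Y is CCAAT. The core of sites for ETS factors is CCGGAA. The TATA box was searched as TATAAA. The core of a cyclic AMP response element was searched as TGACGT.
*Srsf2*, chr11:116853095-116853294, minus strand: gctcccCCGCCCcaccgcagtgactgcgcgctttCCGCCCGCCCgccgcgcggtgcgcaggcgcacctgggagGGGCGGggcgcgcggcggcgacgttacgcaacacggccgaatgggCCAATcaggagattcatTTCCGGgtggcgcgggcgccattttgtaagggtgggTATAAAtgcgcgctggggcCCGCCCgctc
*Srsf3*, chr17:29032569-29032627, plus strand: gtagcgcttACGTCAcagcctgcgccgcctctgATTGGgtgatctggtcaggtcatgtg
*Srsf7*, chr17:80207308-80207459, minus strand: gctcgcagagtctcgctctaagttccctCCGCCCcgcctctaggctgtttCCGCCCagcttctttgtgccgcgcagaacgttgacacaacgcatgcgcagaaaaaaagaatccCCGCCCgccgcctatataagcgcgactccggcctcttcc
*Snrpa1*, chr7:66060086-66060298, plus strand: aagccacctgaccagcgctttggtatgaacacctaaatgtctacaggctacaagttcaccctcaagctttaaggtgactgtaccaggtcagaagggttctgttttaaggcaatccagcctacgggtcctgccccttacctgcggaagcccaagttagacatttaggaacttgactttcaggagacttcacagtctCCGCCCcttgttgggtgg
*Srsf5*, chr12:80945397-80945498, plus strand: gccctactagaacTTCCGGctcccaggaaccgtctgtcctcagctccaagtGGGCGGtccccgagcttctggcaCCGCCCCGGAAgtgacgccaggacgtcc

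The *Srsf2* stretch holds a TATA box 29 bases before the start, the NF-Y box at 82 bases, the ETS core at 65 bases and 5 GC boxes. The *Srsf3* stretch has the NF-Y box at 58 bases and the cyclic AMP element core at 82 bases. The stretches of *Srsf7* and *Snrpa1* carry GC boxes without the other motifs in capitals. In the full 250 bases, *Srsf7* also had the ETS core and *Srsf3* a TATA box, neither within the stretch shown. *Srsf5* has the ETS core at 23 and 89 bases, and the nearer match overlaps a GC box. In the stretches shown, no motif in capitals was common to the 4 strongly reduced genes and missing from *Srsf5*. The stretches differ in length, from 59 bases for *Srsf3* to 213 for *Snrpa1*, so an absence from a short one says little. In the full 250 bases, *Snrpa1* had only the GC box and *Srsf3* lacked it, so none of these motifs was common to the 4 genes there either. Over the full 250 bases, RefSeq gave 55 windows for 41 of the 47 members. The ETS core was found in 47.3% of these windows, in 22.8% of 8916 windows of the genes tested, and in 12.0% of all 32851 windows. The other shares, in the same order, were 70.9%, 61.5% and 32.7% for the GC box, 43.6%, 35.8% and 33.8% for the NF-Y box, 18.2%, 10.3% and 6.47% for the cyclic AMP element core, and 9.09%, 5.68% and 12.4% for the TATA box. The E-box, searched as CACGTG, was found in 9.09%, 8.91% and 6.02%. The YY1-type site, searched as AAGATGG, was found in 1.82%, 4.31% and 4.49%. Both strands were searched throughout, and windows of the same gene can overlap. The median GC content was 61.6% for the members, 60.4% for the genes tested and 52.4% for all windows. A match is a run of letters and was not tested as a binding site.

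GSK-J4 was accompanied by lower levels across the splicing genes of all families. Without AA, 45 of the 46 members tested were lower with GSK-J4 than with DMSO, against 63.0% of all 9196 genes tested. With AA, all 47 members were lower, against 62.2% of 9139 genes. The 47 include *Hnrnpa2b1*, which passed the minimum FPKM only through its AA+DMSO value, so it could only be lower. With an FPKM of at least 1 required in both libraries, 46 of 46 members were lower with AA, against 65.1% of 8372 genes. The median log2 ratio of the members was −0.89 without AA and −0.78 with AA, whereas the median of all genes was −0.17 and −0.16. At least 2-fold lower were 12 members (26.1%) without AA and 9 members (19.1%) with AA, where the background of all genes was 3.50% and 3.38%. No member was at least 2-fold higher in either comparison, against 4.96% and 4.13% of all genes. These counts depend on how the libraries are scaled to each other. With the total FPKM made equal in all libraries, 43 of 46 members were lower without AA and 44 of 47 with AA, against 36.1% and 37.3% of all genes. The members at least 2-fold lower then numbered 5 and 3, and the share of all genes at least 2-fold lower was 1.04% and 1.08%.

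The 2 DMSO libraries lay close together, as did the 2 GSK-J4 libraries. For 45 of the 46 members tested in both comparisons, both GSK-J4 libraries were below both DMSO libraries. This separation was also found for 51.9% of all 8972 genes tested in both. Summed over the members, FPKM was 6259, 3350, 5797 and 3290. This sum was 1.74%, 1.22%, 1.69% and 1.21% of the summed FPKM of all genes. Members with an FPKM of at least 100 numbered 23 in each DMSO library and 12 in each GSK-J4 library. This count was not made for all genes, so the drop cannot be called particular to the members. The summed FPKM of all genes was also lower with GSK-J4, at 360621, 275575, 342327 and 271205.

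**Figure D1:**
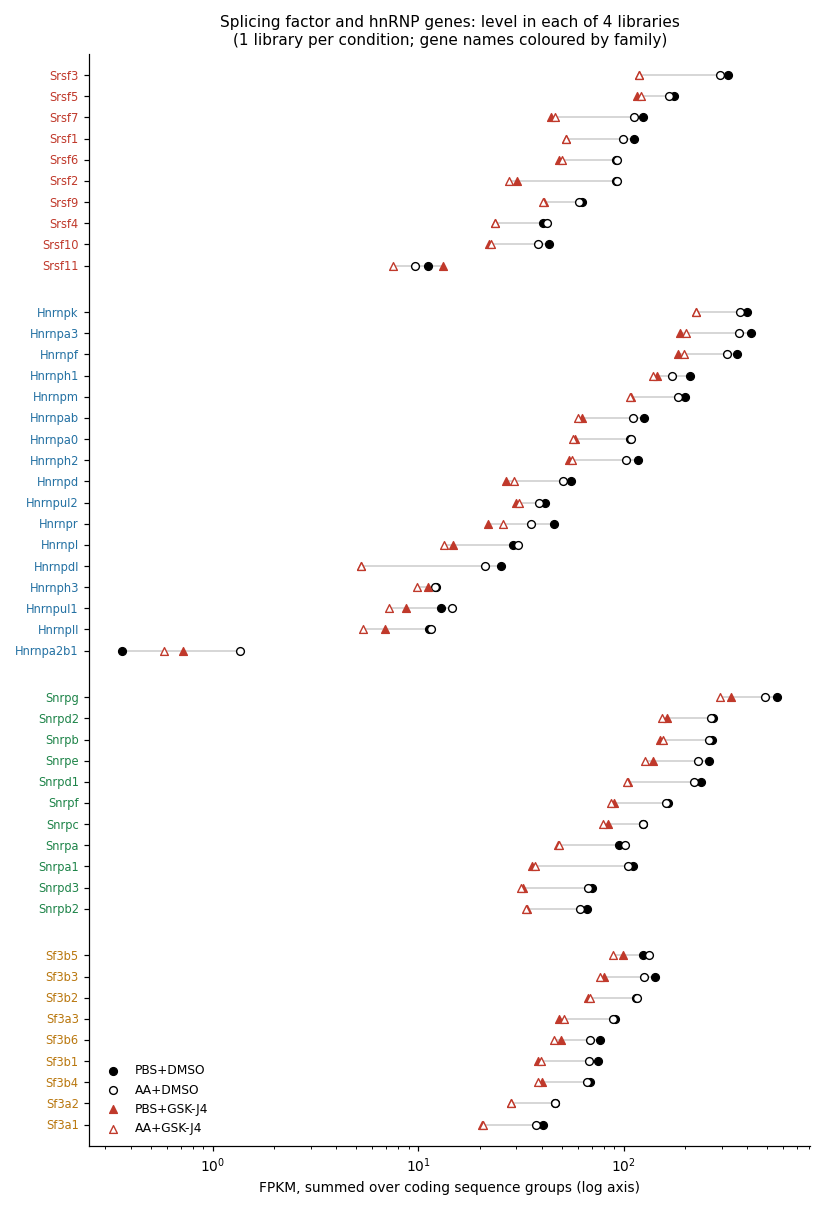
FPKM of each of the 47 members (horizontal log axis) in the 4 libraries, grouped by family and sorted by mean level. Circles are DMSO and triangles GSK-J4, filled without AA and open with AA, and the triangles lie left of the circles for every gene except *Srsf11* and *Hnrnpa2b1*.

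Highly expressed genes as a whole were lower under GSK-J4, and the members are mostly highly expressed. When all genes with a value were divided into 10 bins of equal size by mean FPKM, 29 members belonged to the highest bin (mean FPKM of at least 54.7) and 11 to the next. In the highest bin, the median log2 ratio was −0.89 for the members and −0.60 for all genes without AA, and −0.79 and −0.54 with AA. In the next bin, the medians were −0.94 and −0.45 without AA, and −0.76 and −0.40 with AA. The median difference between a member and the median of its own bin was −0.32 on the log2 scale in each comparison. Without AA 40 of 46 members were below the median of their own bin, and with AA 44 of 47 were. The ESC markers, also mostly highly expressed, had medians of −0.76 and −0.70, and the 5 fibroblast markers had medians of 0.31 and 0.29. The part of these markers in the result was not tested.

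**Figure D2:**
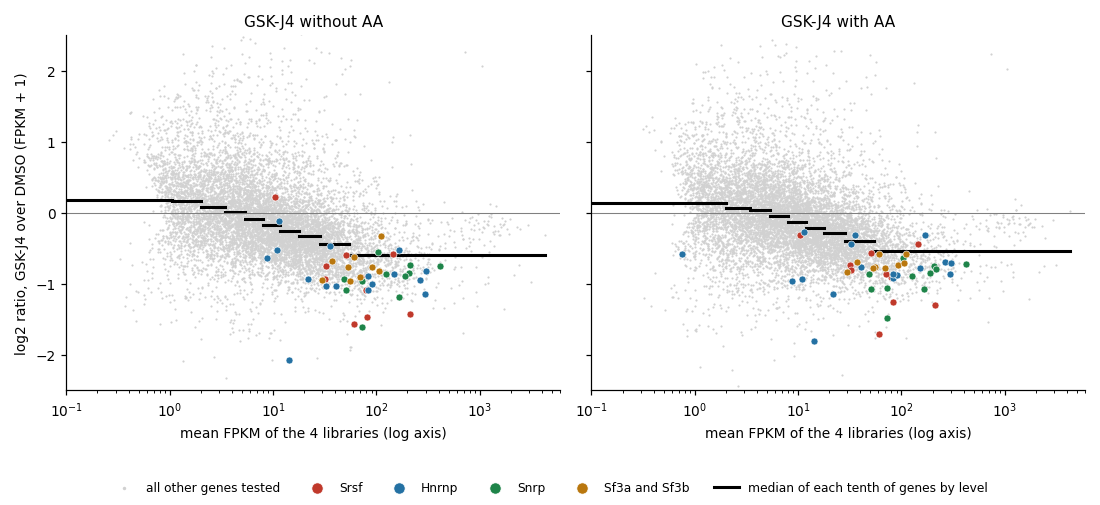
Log2 ratio of GSK-J4 over DMSO (vertical axis, cropped at −2.5 and 2.5) against mean FPKM of the 4 libraries (horizontal log axis from 0.1), without AA on the left and with AA on the right. Grey points are all other genes tested, coloured points are members by family and black bars are the medians of the 10 bins of all genes by level, which run downward from left to right, with most members below the bars at the right.

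The size of the change was similar in the absence and presence of AA. Across the 46 members tested in both comparisons, the log2 ratios had a Pearson r of 0.858 and a Spearman rho of 0.712, and over all 8972 genes tested in both the Pearson r was 0.842. The ratios of 42 members lay within 0.3 of each other, as did those of 81.4% of all genes, and their difference had an SD of 0.195 across members and 0.327 across all genes. The members at least 2-fold lower in both comparisons were *Srsf2*, *Srsf3*, *Srsf7*, *Hnrnpdl*, *Snrpa1*, *Snrpd1* and *Snrpd3*, 7 in all. Another 5 passed 2-fold only without AA (*Srsf1*, *Hnrnpa3*, *Hnrnpd*, *Hnrnph2* and *Hnrnpr*) and 2 only with AA (*Hnrnpl* and *Snrpa*). Of the 8972 genes tested in both, 165 (1.84%) were at least 2-fold lower in both, 143 only without AA and 135 only with AA. Many members lie close to the threshold. Between log2 ratios of −1.1 and −0.9 there were 15 members without AA and 7 with AA, so membership of these groups turns on small differences for many of the genes.

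**Figure D3:**
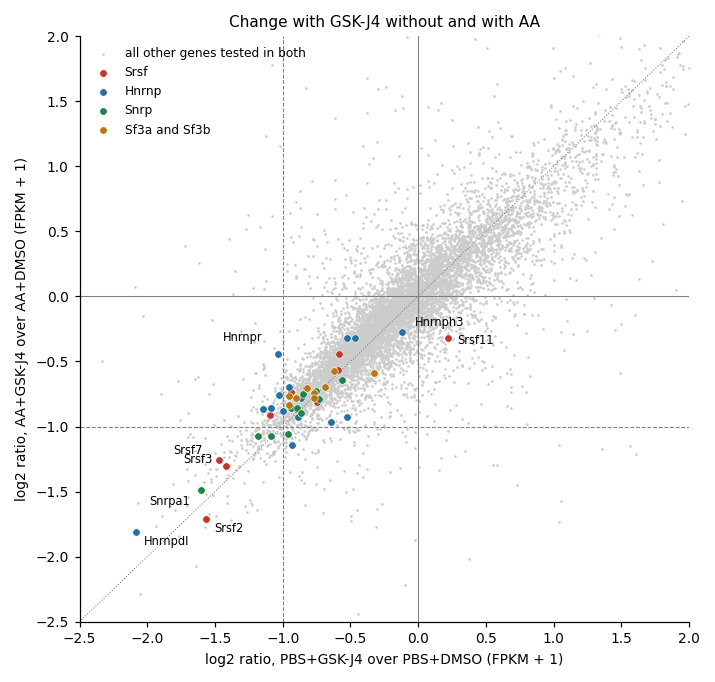
Log2 ratio with GSK-J4 in the presence of AA (vertical axis) against that in its absence (horizontal axis), both cropped at −2.5 and 2. Grey points are all other genes tested in both comparisons, coloured points are the members by family, dashed lines mark 2-fold lower and the dotted line marks equal ratios, near which most members lie.

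Among the SR protein genes, 9 of 10 were lower without AA and all 10 with AA, with medians of −0.92 and −0.84. The family was the most varied, with the only tested member above 0 without AA and an SD across genes of 0.53 and 0.43. *Srsf2*, which encodes a protein concentrated in nuclear speckles, had an FPKM of 92.0 (PBS+DMSO), 30.5 (PBS+GSK-J4), 93.2 (AA+DMSO) and 27.8 (AA+GSK-J4). Its GSK-J4 level was 33.1% of the DMSO level without AA and 29.9% with AA, a log2 ratio of −1.56 and −1.71. *Srsf3*, the gene of the smallest SR protein and the most highly expressed of the family, had an FPKM of 321, 119, 294 and 118 in the same order, with log2 ratios of −1.42 and −1.31. *Srsf7*, whose product carries a zinc knuckle, had 124, 44.4, 113 and 46.6 FPKM, with log2 ratios of −1.47 and −1.25. For these 3 genes the GSK-J4 levels were between 29.9% and 41.4% of the DMSO levels, and the DMSO libraries differed little from each other.

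*Srsf1*, the gene of the prototype SR protein, was at 113 FPKM (PBS+DMSO), 52.5 (PBS+GSK-J4), 99.6 (AA+DMSO) and 52.6 (AA+GSK-J4). Its log2 ratios of −1.09 and −0.91 lie on either side of the 2-fold threshold. *Srsf10*, which encodes a protein that represses splicing when dephosphorylated, had 43.4, 22.2, 38.5 and 22.8 FPKM, with log2 ratios of −0.94 and −0.73. *Srsf5*, the second most abundant family member by FPKM, had 176, 117, 166 and 122 FPKM and smaller log2 ratios of −0.59 and −0.44. *Srsf4*, *Srsf6* and *Srsf9* had log2 ratios between −0.90 and −0.57 in the comparisons. *Srsf11* differed from the rest of the family. It was listed at 11.2, 13.2, 9.66 and 7.54 FPKM, higher with GSK-J4 without AA (log2 ratio 0.22) and lower with AA (−0.32), and its GSK-J4 and DMSO values overlapped.

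All *Hnrnp* genes tested were lower with GSK-J4, 16 without AA and 17 with AA. The 17 include *Hnrnpa2b1*, tested with AA only because of its AA+DMSO value. At the same total FPKM, however, *Hnrnph3* was above 0 in both comparisons and *Hnrnph1* and *Hnrnpul2* were just above 0 with AA. *Hnrnpr* was above 0 with AA when only its main coding sequence group was used. The family medians were −0.91 and −0.78. *Hnrnpdl*, a relative of *Hnrnpd*, had the lowest log2 ratio of any member in both comparisons. It had an FPKM of 25.5 (PBS+DMSO), 5.26 (PBS+GSK-J4), 21.1 (AA+DMSO) and 5.28 (AA+GSK-J4). Its log2 ratios were −2.08 and −1.81, and the GSK-J4 level was 20.7% of the DMSO level without AA. *Hnrnpd*, which encodes a protein that binds AU-rich elements, had 55.4, 26.7, 50.6 and 29.4 FPKM, with log2 ratios of −1.03 and −0.76. The deposited tables give *Hnrnpd* and *Hnrnpdl* the same locus, chr5:99955900-100068771 on mm10. GENCODE M21 places them apart on the minus strand, *Hnrnpd* at chr5:99955935-99978938 and *Hnrnpdl* at chr5:100033577-100039664.

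The most abundant *Hnrnp* transcripts by FPKM were those of *Hnrnpk* and *Hnrnpa3*. *Hnrnpk*, whose product binds C-rich sequence through KH domains, had 400.4, 226, 367 and 225 FPKM, with log2 ratios of −0.82 and −0.70. *Hnrnpa3*, of the hnRNP A/B class, had 418, 188, 366 and 200.3 FPKM, with log2 ratios of −1.15 and −0.87. In both genes the GSK-J4 libraries were clearly below the DMSO libraries, and the ratio without AA was the larger in size. *Hnrnph2*, of the G-run binding hnRNP F/H class and the only member on the X chromosome, had 117, 54.5, 102 and 56.0 FPKM, with log2 ratios of −1.09 and −0.86. *Hnrnpl*, whose product binds CA repeats, had 28.9, 14.7, 30.6 and 13.3 FPKM, with log2 ratios of −0.93 and −1.14. Its order was the reverse, with the larger reduction in the presence of AA.

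*Hnrnpr* showed the largest difference between the comparisons among members above 5 FPKM. It had 46.1 FPKM (PBS+DMSO), 22.0 (PBS+GSK-J4), 35.3 (AA+DMSO) and 25.8 (AA+GSK-J4), with log2 ratios of −1.03 without AA and −0.44 with AA. With its main coding sequence group alone, these ratios were −1.13 and 0.13. *Hnrnph3* changed least, at 12.2, 11.2, 12.1 and 9.84 FPKM, with log2 ratios of −0.12 and −0.28. These turn positive, to 0.24 and 0.03, when the libraries are scaled to the same total. *Hnrnpa2b1* was nearly undetected, at 0.364, 0.717, 1.37 and 0.580 FPKM, and was tested with AA only because of its AA+DMSO value. The tables list 1 coding sequence group for it, whereas GENCODE M21 annotates 6 coding transcripts, and whether this group stands for the whole gene is not known. *Hnrnpab* lay just inside the threshold without AA, with a log2 ratio of −0.998 that was not counted as 2-fold, and −0.88 with AA. The remaining members, *Hnrnpa0*, *Hnrnpf*, *Hnrnph1*, *Hnrnpll*, *Hnrnpm*, *Hnrnpul1* and *Hnrnpul2*, had log2 ratios between −0.96 and −0.32 in the comparisons.

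The *Snrp* genes were all lower in both comparisons, with medians of −0.89 and −0.86 and a narrower spread than the *Srsf* and *Hnrnp* genes (SD across genes 0.28 and 0.24). *Snrpa1*, which encodes a protein particular to the U2 snRNP, had the lowest ratios of the family. It had an FPKM of 111 (PBS+DMSO), 35.8 (PBS+GSK-J4), 105 (AA+DMSO) and 37.0 (AA+GSK-J4), or log2 ratios of −1.60 and −1.49. *Snrpa*, the gene of the A protein of the U1 snRNP, had 94.6, 48.1, 102 and 48.3 FPKM, with log2 ratios of −0.96 and −1.06. *Snrpc*, of the U1 snRNP, was among the least reduced, at 124, 83.8, 125 and 79.8 FPKM and log2 ratios of −0.56 and −0.64. *Snrpb2*, of the U2 snRNP, had ratios of −0.94 and −0.86.

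The 7 Sm genes (*Snrpb*, *Snrpd1*, *Snrpd2*, *Snrpd3*, *Snrpe*, *Snrpf* and *Snrpg*) encode the ring around the snRNA. Their medians were −0.87 and −0.86. *Snrpd1* had 239, 105, 221 and 104 FPKM, with log2 ratios of −1.18 and −1.07. *Snrpd3* had 70.2, 32.5, 67.5 and 31.6 FPKM, with log2 ratios of −1.09 and −1.07. *Snrpd2* had 272, 163, 267 and 154 FPKM, with log2 ratios of −0.73 and −0.79, and *Snrpg*, the most highly expressed member of all families, had 561, 332, 485 and 293 FPKM, with −0.76 and −0.72. The ratios of *Snrpb*, *Snrpe* and *Snrpf* lay between −0.89 and −0.75. The composition of the ring genes shifted little. *Snrpg* made up 30.5%, 32.8%, 28.7% and 30.8% of their summed FPKM, and *Snrpd1* 13.0%, 10.4%, 13.0% and 10.96%, while the other 5 genes moved by at most 1.54 percentage points.

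The *Sf3a* and *Sf3b* genes were the most uniform. All 9 were lower in both comparisons (*Sf3b5* without AA excepted at the same total FPKM), none reached 2-fold, and the log2 ratios spanned −0.96 to −0.33 without AA and −0.84 to −0.58 with it, with medians of −0.77 and −0.74. *Sf3b1*, whose product holds the branch point helix, had an FPKM of 75.1 (PBS+DMSO), 38.2 (PBS+GSK-J4), 67.9 (AA+DMSO) and 39.6 (AA+GSK-J4), with log2 ratios of −0.96 and −0.76. *Sf3a1*, the largest subunit of SF3A, had 40.6, 20.5, 37.6 and 20.6 FPKM, with ratios of −0.95 and −0.84. *Sf3b3*, the most abundant after *Sf3b5* by mean FPKM, had 142, 80.0, 126 and 76.7 FPKM, with log2 ratios of −0.82 and −0.71. Of these 9 genes, *Sf3b5* and *Sf3b6* changed least. *Sf3b5* had 125, 99.0, 133 and 88.4 FPKM, with log2 ratios of −0.33 and −0.59, and *Sf3b6*, which contacts the branch adenosine, had 76.5, 49.5, 69.0 and 46.0 FPKM, with −0.62 and −0.58. Under the same-total scaling, the *Sf3b5* ratio without AA was 0.05. *Sf3a2*, *Sf3a3*, *Sf3b2* and *Sf3b4* had ratios between −0.90 and −0.69.

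Because a gene can be represented by several coding sequence groups, the estimates were also examined within genes. The files do not say which coding sequence each group stands for, and the division of reads between groups is an estimate. Of 6 members with more than 1 group above 0, *Srsf7*, *Srsf10* and *Hnrnpr* had a group whose share of the gene moved by more than 20 percentage points between libraries. How often shares moved as far among all genes with several groups was not computed, so these moves cannot be called particular to the members. In *Srsf7*, the group P4495 was at 36.1 (PBS) and 31.7 FPKM (AA) with DMSO, but at 1.08 (PBS) and 0.00148 FPKM (AA) with GSK-J4. Its share of the gene was 29.0% and 28.2% in the DMSO libraries and 2.42% in PBS+GSK-J4. The group P4496 was at 61.9, 28.5, 54.1 and 27.4 FPKM in the usual order, and P4497 was at 26.5, 14.8, 26.7 and 19.1 FPKM. All 3 groups were lower under GSK-J4, and P4495 was near 0 in both treated libraries.

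In *Srsf10* and *Hnrnpr*, the shift was not the same in the 2 comparisons. The *Srsf10* group P6901 was at 8.34, 6.13, 11.5 and 2.13 FPKM, and its share of the gene was 19.2%, 27.6%, 29.9% and 9.36%. The *Hnrnpr* group P6910 was at 27.1, 11.9, 15.9 and 17.4 FPKM, with a share of 58.9%, 53.9%, 45.0% and 67.6%. These shares cross between the GSK-J4 and DMSO libraries. In *Hnrnpa3*, *Hnrnpab* and *Hnrnpd*, shares moved by 4.50, 3.42 and 7.46 percentage points at most.

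**Figure D4:**
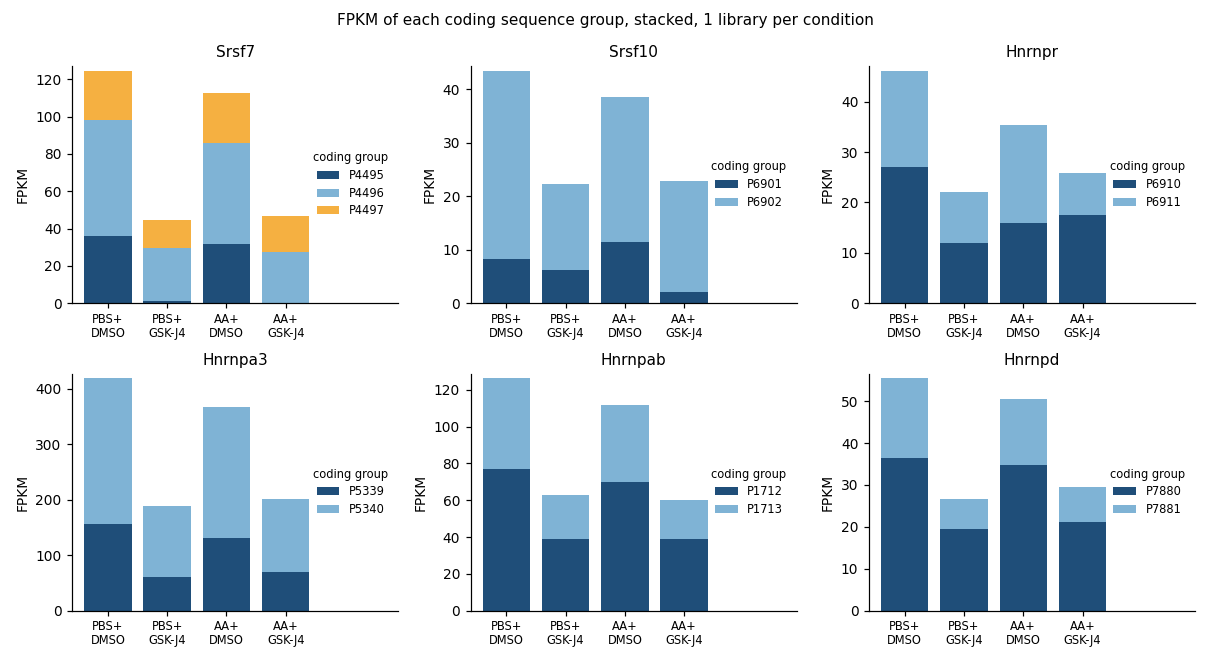
FPKM of each coding sequence group (vertical axis, stacked bars from 0) of 6 members in the 4 libraries, 1 library per bar. In *Srsf7* the darkest segment, P4495, is at 36.1 and 31.7 FPKM in the DMSO libraries and is barely visible in the GSK-J4 libraries.

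The levels of these genes were close with and without AA. Comparing AA with PBS sets libraries from separate tables side by side, and these comparisons share their libraries with the GSK-J4 comparisons. In DMSO, 13 members were higher with AA and 34 lower, with a median log2 ratio of −0.09 against −0.05 for all genes, of which 62.4% were lower. The 13 include *Hnrnpa2b1*, which passed the minimum FPKM only through its AA+DMSO value, so it could only be higher. With an FPKM of at least 1 required in both libraries, 34 of 46 members were lower in DMSO, against 62.9% of 8408 genes. At the same total FPKM, 25 of 47 members and 44.0% of all genes were lower in DMSO. In GSK-J4, 20 were higher and 26 lower, with 55.4% of all genes lower and a median of −0.01 against −0.02 for all genes. No member reached 2-fold in either direction, where the background was 0.565% higher and 0.735% lower in DMSO and 0.512% and 0.599% in GSK-J4. The log2 ratios with AA in DMSO ranged from −0.37 for *Hnrnpr* to 0.79 for the nearly undetected *Hnrnpa2b1*, and in GSK-J4 from −0.73 for *Srsf11* to 0.22 for *Hnrnpr*.

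Other genes of splicing were mostly lower as well. Of 125 genes with a value in 7 further lists, 114 of 124 were lower without AA and 114 of 123 with AA, with medians of −0.66 and −0.58. At least 2-fold lower were 13 (10.5%) and 5 (4.07%), the latter close to the 3.38% of all genes. Against genes of similar level, the lists together had a median difference of −0.24 and −0.21 on the log2 scale, where that of the members was −0.32 in each comparison. The snRNP assembly genes, which load Sm proteins onto snRNA, had the lowest medians of these lists, −0.84 and −0.75, with all 13 lower. Against genes of similar level, their median difference was −0.37 and −0.33, and that of the exon junction complex was −0.38 and −0.32, at or beyond the values of the members. That of the other snRNP proteins was −0.29 and −0.33, beyond the members only with AA. In the remaining lists it was smaller in size than in the members. The other medians without and with AA were −0.73 and −0.70 for the exon junction complex, −0.71 and −0.70 for branch point and 3′ splice site recognition, −0.69 and −0.52 for SR-related proteins and their kinases, −0.65 and −0.58 for other snRNP proteins, −0.56 and −0.49 for the Prp19 complex and catalytic steps, and −0.55 and −0.42 for hnRNP-like and other regulators.

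From these lists, 4 of the 125 genes with a value were at least 2-fold lower in both comparisons, against 1.84% of 8972 genes tested in both. *Snrnp70*, of the U1 snRNP, had an FPKM of 115 (PBS+DMSO), 37.7 (PBS+GSK-J4), 108 (AA+DMSO) and 39.5 (AA+GSK-J4), with log2 ratios of −1.58 and −1.43. *Gemin4*, of the SMN complex, had 8.77, 1.79, 6.68 and 1.82 FPKM, with −1.81 and −1.44. *Nono*, a paraspeckle protein gene, had 349, 157, 292 and 139.6 FPKM, with −1.15 and −1.06, and *Tra2b*, an SR-like regulator, had 63.0, 28.5, 56.8 and 27.0 FPKM, with −1.12 and −1.05. A single gene was at least 2-fold higher in both, *Mbnl2*, a regulator associated with differentiated cells, at 4.33, 10.1, 1.53 and 10.5 FPKM and log2 ratios of 1.06 and 2.19. Its DMSO level also differed between PBS and AA, with a log2 ratio of −1.07. The share of all genes at least 2-fold higher in both comparisons was not computed.

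**Figure D5:**
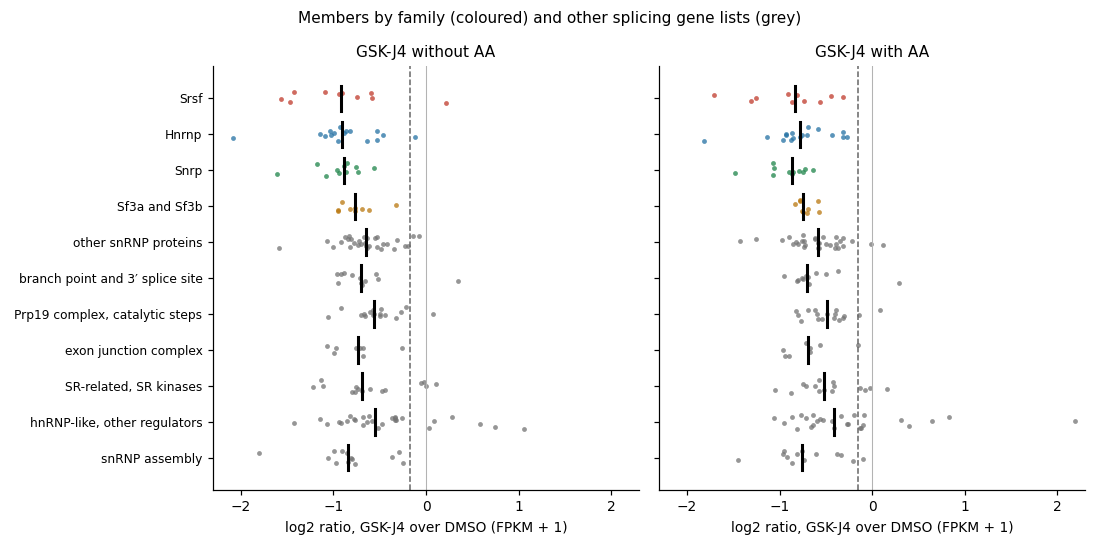
Log2 ratio of GSK-J4 over DMSO (horizontal axis) for each gene tested, without AA on the left and with AA on the right, by member family (coloured) and by the 7 other splicing lists (grey). Vertical bars are list medians and the dashed line is the median of all genes, at −0.17 and −0.16. The list medians lie between −0.92 and −0.42.

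The members also differ in annotated transcript structure. In GENCODE M21, 22 of the 47 members (46.8%) have a transcript annotated as a target of nonsense-mediated decay (NMD), against 28.8% of 8829 genes tested that could be matched. Such transcripts are known for the SR protein genes, which limit their own levels by including poison exons. They are annotated for 9 of 10 *Srsf*, 8 of 17 *Hnrnp*, 4 of 11 *Snrp* and 1 of 9 *Sf3a* or *Sf3b* genes. The files hold coding sequence groups, and no level of NMD transcripts was analysed here. An exon of 21 members overlaps an exon of another gene, 17 of them with a gene on the opposite strand, and the use of strand in the authors' counting is not given in the sources used here. Several members have processed pseudogenes of nearly identical sequence, and how reads that match several places were treated is likewise not given, so levels of such genes are uncertain.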

How the data were processed

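RNA-Seq was analysed from 4 libraries of LF2 ESCs, 1 for each condition, assigned from their labels. Through Maser, the authors removed duplicate single-end reads, aligned with TopHat2 and computed expression with Cufflinks2, followed by CummeRbund and Genome Explorer. The submitters' processing notes name mm10. The authors deposited 2 tables of FPKM, 1 without and 1 with AA. The FPKM columns are headed log10 but hold linear values. Removing duplicates can reduce the FPKM of abundant transcripts. The tables also hold the authors' fold changes, p-values and q-values, which were not used.

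For each gene, FPKM of its coding sequence groups was added up, and the 157 genes with a failed estimate were left out. Log2 ratios used a pseudocount of 1, a minimum FPKM of 1 in either library and a 2-fold threshold. With 1 library per condition no test was run and no p-value was computed. Low values recur in steps, but relative depth was not settled from them, so the precision of single values is unknown.

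The members and lists were chosen with earlier results of these data known. Full values are given, per family, for the 2 members with the highest mean FPKM and the 2 highest and 2 lowest by mean ratio with GSK-J4. They are also given for members past 2-fold in any comparison, for the 2 that differed most between the GSK-J4 comparisons in each direction, and for members with a coding sequence group whose share moved by over 20 percentage points. From the other lists, genes past 2-fold in the same direction in both GSK-J4 comparisons were named, up to 5 each way. Alternatives were pseudocounts of 0.1 and 5, other filters, upper quartile, same-total and median scaling, thresholds of 1.5-fold and 4-fold, the main coding sequence group alone, and inclusion of failed genes. The scripts were tested on simulated data. Python 3.11.15, numpy 2.4.6, pandas 2.3.3 and matplotlib 3.10.9 were used.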

Additional observations from a re-analysis of the deposited data

Results flagged for a closer look

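In *Srsf11* and *Hnrnpa2b1*, the change with GSK-J4 had opposite directions without and with AA. The log2 ratio of *Srsf11* was 0.22 without AA and −0.32 with AA. That of *Hnrnpa2b1* was 0.33 without AA, where it did not reach the minimum FPKM of 1 and was not counted, and −0.58 with AA. The difference was not tested in either gene, since each condition has 1 library. *Hnrnpa2b1* was at 0.364 to 1.37 FPKM.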

How the results depend on the processing

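The members' median log2 ratio with GSK-J4 was −0.89 without AA and −0.78 with AA as reported. It was −0.61 and −0.53 after division by the upper quartile, −0.51 and −0.45 at the same total FPKM, and −0.72 and −0.63 after centring on all genes. The median of all genes, −0.17 and −0.16 as reported, was 0.07 and 0.07 under the upper quartile and 0.17 and 0.14 at the same total, and 44 of 46 and 47 of 47 members were below it under each scaling. The members at least 2-fold lower (12 and 9) became 5 and 5 under the upper quartile (1.37% and 1.32% of all genes), 5 and 3 at the same total (1.04% and 1.08%) and 6 and 5 after centring (1.71% and 1.66%). At 1.5-fold they numbered 39 and 38, against 19.3% and 17.8% of all genes, and at 4-fold 1 and 0, against 0.0652% and 0.0657%. For AA in DMSO, 1 member, *Hnrnpa2b1*, was higher, in place of 0, at 1.5-fold and with a pseudocount of 0.1. It was tested there only because of its AA+DMSO value, and the share of all genes higher at these settings was not computed. For AA in GSK-J4, 1 of 46 members was lower, in place of 0, at 1.5-fold, against 2.54% of all genes. The other 157 alternative values of medians and counts stayed within the spread between the 2 GSK-J4 comparisons or within 1.5 times the count. Of the values for named genes, 370 stayed within that spread and 178 moved beyond it, and no ratio past 2-fold changed sign. The *Hnrnpr* ratio with AA, −0.44, became 0.13 with its main coding sequence group alone. With 1 library per condition, there were no replicates to pair. A fit of GSK-J4 with AA as a block, with 1 residual degree of freedom, was not run. Depth is unknown, so small differences between members cannot be ranked.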

Other observations

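*Hnrnpc*, whose product binds U-rich tracts, has a failed estimate for part of its coding sequence groups and was left out of all counts. Its main group, P3108, was at 189 (PBS+DMSO), 87.2 (PBS+GSK-J4), 177 (AA+DMSO) and 86.6 FPKM (AA+GSK-J4). Both GSK-J4 values were below both DMSO values, as for most members.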
